A study of Mus musculus with 2 samples.

Results

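Let-7 and miR-98 genes that lie outside the miR-99/miR-100/miR-125 loci were examined in the heart of the neonatal mouse. They were chosen by gene name, as the rows of the microRNA tables whose GENCODE M21 symbol is Mirlet7i, Mirlet7g, Mirlet7b, Mirlet7c-2, Mirlet7d, Mirlet7f-1, Mirlet7a-1, Mirlet7f-2 or Mir98. All 9 genes were found among the 2202 miRNA genes of the tables, and the rule uses names and no measured value. The study profiled whole hearts of male B6CASTF1/J mice, the first-generation cross of C57BL/6J and CAST/EiJ, at 4 days of age. It has 1 group of 2 libraries, biological replicates 1 and 2, and no treatment, induced mutation or control group. The labels number the males differently but give both the same donor identifier. If the libraries do not come from separate animals, the spread between them is technical.

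Let-7 miRNAs are made as hairpin precursors, from which Drosha and Dicer cut a short mature strand that guides Argonaute proteins to messenger RNAs. Target choice rests mainly on the seed, the bases near the 5′ end of the mature strand, and the let-7 miRNAs of these 9 genes, with miR-98, carry the same seed. The family rises as cells leave the stem or progenitor state, and it represses growth genes such as Hmga2, Lin28b and Myc family members. In precursor cells the RNA-binding proteins LIN28A and LIN28B hold mature let-7 low by binding its precursors.

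The sequences below show how closely the guide strands of the 9 genes resemble each other, because a read with more than 1 matching place was set aside by the counting and given to no gene. The 9 hairpins give 8 distinct mature miRNAs from the 5′ arm (5p), each of 22 bases. They are written 5′ to 3′ from RefSeq on GRCm38.p6, with the seed (bases 2 to 8) in capitals:
let-7i-5p: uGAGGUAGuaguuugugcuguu
let-7g-5p: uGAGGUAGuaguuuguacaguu
let-7b-5p: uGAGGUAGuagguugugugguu
let-7c-5p: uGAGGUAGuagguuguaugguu
let-7d-5p: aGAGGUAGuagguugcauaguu
let-7f-5p: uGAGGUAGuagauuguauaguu
let-7a-5p: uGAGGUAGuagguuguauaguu
miR-98-5p: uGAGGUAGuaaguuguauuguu

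The 8 strands were identical at 15 of 22 positions, the whole seed included, and any pair differed at 1 to 6 positions. With positions counted from 1 at the 5′ end of let-7a-5p, let-7c-5p differed from it by A19G and let-7f-5p by G12A. Let-7b-5p carried A17G and A19G, let-7d-5p U1A and U16C, let-7g-5p G12U and U18C, and miR-98-5p G11A and A19U. Let-7i-5p was the farthest from let-7a-5p, with G12U, A17G, U18C and A19U.

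The 9 genes fell into 2 classes by the sequence they share with other annotated hairpins. Mirlet7i, Mirlet7g, Mirlet7b, Mirlet7d and Mir98 shared no stretch of 20 bases with any of the other miRNA hairpins. Let-7i-5p has a close relative all the same in let-7j, the mature strand of Mir7j, which differs from it by G8U (counted from the 5′ end of let-7i-5p) and so has another seed. Mir7j had 16.7 and 28.4 CPM in replicates 1 and 2. Mirlet7a-1, Mirlet7c-2, Mirlet7f-1 and Mirlet7f-2 each shared a stretch of 20 bases with another hairpin, as did 49.4% of all 2202 hairpins. Let-7f-5p is encoded by both Mirlet7f-1 and Mirlet7f-2. Let-7a-5p is also encoded by Mirlet7a-2 and let-7c-5p by Mirlet7c-1, which belong to miR-99/miR-100/miR-125 loci. Mirlet7a-1 and Mirlet7c-2 also have the same strand from their 3′ arm (3p), shown because it leaves neither gene a mature strand of its own:
let-7a-1-3p and let-7c-2-3p: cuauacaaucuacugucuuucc

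The hairpins of Mirlet7f-1 and Mirlet7f-2 are shown for their identical 5p strand and different 3p strands, with both arms in capitals:
Mirlet7f-1: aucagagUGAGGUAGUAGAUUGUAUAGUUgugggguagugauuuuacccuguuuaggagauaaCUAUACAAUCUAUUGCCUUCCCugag
Mirlet7f-2: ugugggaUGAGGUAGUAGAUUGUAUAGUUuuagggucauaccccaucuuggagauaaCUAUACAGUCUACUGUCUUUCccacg

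Counted from the 5′ end of let-7f-5p, these hairpins are identical for 22 bases and first differ by G23U, from Mirlet7f-1 to Mirlet7f-2. The copies of let-7a-5p and of let-7c-5p are each identical for 23 bases, and both pairs first differ by U24A, from the gene studied here to its copy in a miR-99/miR-100/miR-125 locus. A 5p read that ends with the mature strand therefore cannot be placed on either copy from its letters. Multi-mapped reads numbered 3657699 in replicate 1 and 3929811 in replicate 2, beside 4196577 and 3801738 sense counts over all genes. How many of them are let-7 was not tested, so the counts of these 4 genes hold only reads that could be placed on them.

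Counts on the gene's own strand (sense counts) were used, and CPM is a gene's counts per 1000000 sense counts of its library. A single read was worth 0.238 CPM in replicate 1 and 0.263 CPM in replicate 2, so all 9 genes stood far above the depth limit. Heart muscle markers Mir208a, Mir208b and Mir499 were all detected, with 1.31% and 0.886% of sense counts together in replicates 1 and 2. The muscle genes Mir1a-1, Mir1a-2, Mir133a-1 and Mir133a-2, not on the marker list, had mean CPM of 2.90, 43.8, 5.12 and 1.49. The endothelial Mir126a held 10.9% and 4.93%, and the smooth muscle genes Mir143 and Mir145a 4.86% and 7.95%. All 4 leukocyte markers were detected and took 0.148% and 0.154%, and all 3 red blood cell markers 0.0493% and 0.0400%. The liver marker Mir122 took 0.0309% and 0.0105%. Of 6 neuron markers, 5 were matched by symbol and 3 of these had 0 counts in both libraries, and the sum of the 5 was 0.238 and 22.1 CPM. Multi-mapped reads are missing from the marker counts too, so these shares do not rank the cell types. The part of these cell types in the values below was not tested, and in bulk tissue fewer cells of a type and less RNA per cell cannot be told apart.

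The 9 genes together held 20.2% of the sense counts of replicate 1, with a 95% Wilson interval from 20.16% to 20.24%. They held 21.7% of those of replicate 2, with an interval from 21.62% to 21.70%. The mean was 20.9% ± 1.03 (SD, n = 2). All 9 genes had at least 621 counts in each library. Most of the assigned reads came from 2 genes: Mirlet7i and Mirlet7g made up 79.4% ± 0.63 of the counts of the 9 genes. With Mirlet7b and Mirlet7d they made up 95.9% ± 0.39. Multi-mapped reads are not in these counts, and let-7a-5p, let-7c-5p and let-7f-5p are each encoded by 2 genes. These shares therefore do not give the levels of those strands.

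**Figure D1:**
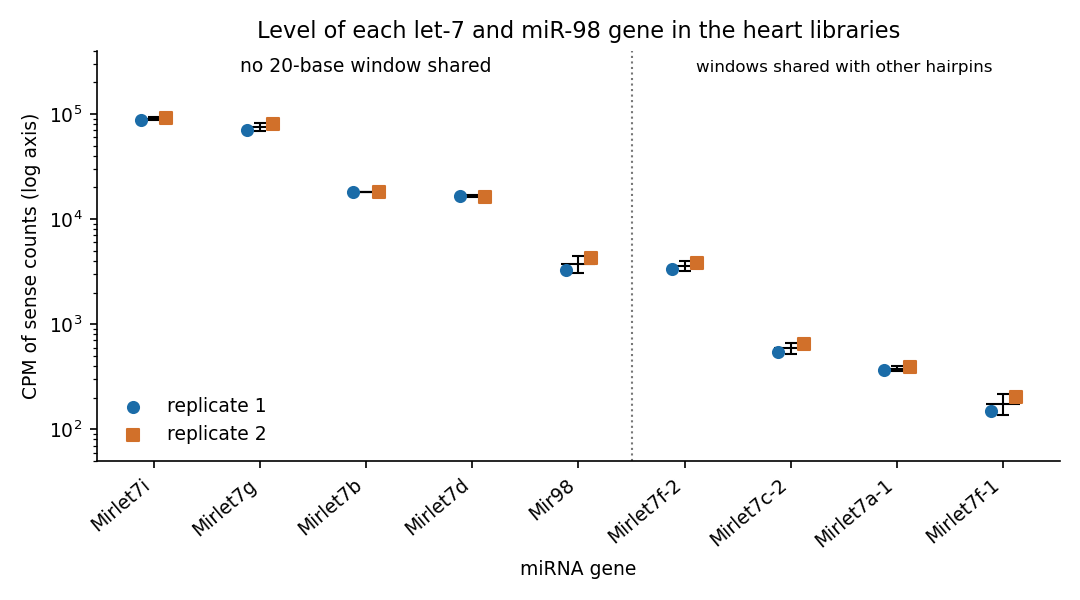
CPM of sense counts (log axis) of each of the 9 genes, with circles for replicate 1, squares for replicate 2, and a bar with whiskers for their mean and SD (n = 2). Genes are split by whether their hairpin shares a 20-base window with another hairpin; levels run from 148 CPM for Mirlet7f-1 to 92532 CPM for Mirlet7i, and Mir98 and Mirlet7f-2 stand at about the same height.

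By assigned reads, Mirlet7i stood highest of the 9 and ranked 2 among all miRNA genes by mean CPM. It had 370368 counts (88255 CPM) in replicate 1 and 351783 counts (92532 CPM) in replicate 2, a mean of 90393 ± 3025 CPM. Between replicates its level varied less than that of Mir126a, the next gene in the order, which had 109199 and 49330 CPM. Mir378a, at 116964 and 118672 CPM, stood above it. The hairpin lies on chromosome 10, 122985640 to 122985724, minus strand (mm10). GENCODE places it within the transcribed pseudogene D630033A02Rik, in an exon of 1 of its 2 transcripts.

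Mirlet7g lies in an intron of Wdr82, a gene for a subunit of SET1 histone methyltransferase complexes (chromosome 9, 106178840 to 106178927, plus strand). It had 298617 counts (71157 CPM) in replicate 1 and 305336 counts (80315 CPM) in replicate 2, a mean of 75736 ± 6475 CPM and rank 4. Mir143, which follows it in the order, had 47075 and 73470 CPM. Mirlet7i exceeded Mirlet7g 1.24-fold in replicate 1 and 1.15-fold in replicate 2.

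On chromosome 15, Mirlet7c-2 (85706603 to 85706697) and Mirlet7b (85707319 to 85707403) lie 621 bases apart on the plus strand, both in exons of the noncoding transcript Lncppara. Mirlet7b had 76246 and 68462 counts, or 18169 and 18008 CPM, a mean of 18088 ± 114 CPM and rank 13. Its neighbours in the order were Mir99a at 14810 and 28083 CPM and Mir99b at 16420 and 16905 CPM. Mirlet7c-2 had 2270 and 2454 counts, or 541 and 645 CPM. Assigned reads of Mirlet7b were thus 33.6-fold those of Mirlet7c-2 in replicate 1 and 27.9-fold in replicate 2, with the reads of let-7c-5p shared with Mirlet7c-1.

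On chromosome 13, Mirlet7d (48536012 to 48536114), Mirlet7f-1 (48537829 to 48537917) and Mirlet7a-1 (48538179 to 48538272) lie on the minus strand, in exons of the long noncoding RNA 6720427I07Rik. The gaps between them are 1714 and 261 bases. Mirlet7d had 70299 and 62073 counts, or 16752 and 16328 CPM, with rank 15 among all genes. Mirlet7a-1 had 1523 and 1489 counts, or 363 and 392 CPM. Mirlet7f-1 had 621 and 774 counts, or 148 and 204 CPM, and was the lowest of the 9 in both libraries. Mirlet7d thus had 46.2-fold and 41.7-fold the assigned reads of Mirlet7a-1, and 113-fold and 80.2-fold those of Mirlet7f-1, from the same locus. Of the 3, Mirlet7d is the one whose 5p strand is found in no other hairpin.

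Mirlet7f-1 also has an annotated miRNA gene on its opposite strand, Gm24111. Ignoring strand, the tables give Mirlet7f-1 0 counts in both libraries. Its values exist only in the stranded column. Gm24111 had 0 and 4 sense counts, so nearly all assigned reads of this place came from the let-7 strand.

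On chromosome X, Mirlet7f-2 (151912346 to 151912428) and Mir98 (151913214 to 151913321) lie 785 bases apart on the plus strand, in an intron of Huwe1, a ubiquitin ligase gene. Mirlet7f-2 had 13956 and 14690 counts, or 3326 and 3864 CPM. Mir98 had 13705 and 16260 counts, or 3266 and 4277 CPM. These were the only neighbours in the order that changed places: Mir98 had 0.982-fold the counts of Mirlet7f-2 in replicate 1 (95% interval 0.959 to 1.01) and 1.11-fold in replicate 2 (1.08 to 1.13). Although they encode the same 5p strand, Mirlet7f-2 had 22.5-fold (20.7 to 24.4) and 19.0-fold (17.7 to 20.4) the assigned reads of Mirlet7f-1. The tables do not separate arms, so the part of the 3p strands and of longer 5p reads in this gap was not tested.

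By mean CPM of assigned reads the order was Mirlet7i, Mirlet7g, Mirlet7b, Mirlet7d, Mir98, Mirlet7f-2, Mirlet7c-2, Mirlet7a-1 and Mirlet7f-1. The log2 difference in counts between neighbours in this order, taken within a library, was 0.26 ± 0.08 for Mirlet7i over Mirlet7g and 0.13 ± 0.02 for Mirlet7b over Mirlet7d. It was 0.65 ± 0.10 for Mirlet7c-2 over Mirlet7a-1 and 1.12 ± 0.25 for Mirlet7a-1 over Mirlet7f-1. The other steps down, of 2.06 to 2.60, were also larger than their SDs. Only Mir98 over Mirlet7f-2, at 0.06 ± 0.12, did not differ beyond its spread. Counts per hairpin base kept the order of all neighbours but this pair, in which Mirlet7f-2 then stood above Mir98 in both libraries (log2 difference of Mir98 over Mirlet7f-2 -0.41 and -0.23). The hairpins of Mir98 and Mirlet7f-2 have 108 and 83 bases, but their mature strands have only 21 or 22. Counts per hairpin base therefore need not follow the level of the mature strands. The order was taken from the same 2 libraries, so the sign of the mean differences between neighbours was largely set in advance. With 2 libraries an exact two-sided test of such a difference cannot give a p below 0.5.

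The 5 genes with no shared window held 97.7% ± 0.13 of the counts of the 9 genes, and the 4 with shared windows 2.26% ± 0.13. Reads with more than 1 matching place were given to no gene, which can lower the counts of the second class. A shorter read can be lost from the first class too, since let-7i-5p and let-7g-5p have the same first 16 bases. This split therefore does not compare the levels of the classes, and how many reads were lost was not tested. The classes overlapped at their edges, since Mirlet7f-2 in replicate 2 (3864 CPM) exceeded Mir98 in replicate 1 (3266 CPM).

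The libraries of the 2 replicates were compared gene by gene, with each gene's counts set against the rest of its library. Scaled by library totals, 7 of the 9 genes had the higher CPM in replicate 2 and 2 the lower. The log2 ratio of replicate 2 over replicate 1, of CPM + 1, was 0.46 for Mirlet7f-1, 0.39 for Mir98, 0.25 for Mirlet7c-2, 0.22 for Mirlet7f-2 and 0.17 for Mirlet7g. It was 0.11 for Mirlet7a-1, 0.07 for Mirlet7i, -0.01 for Mirlet7b and -0.04 for Mirlet7d. The median was 0.17, beside -0.26 over the 441 tested genes, which had 10 or more counts over both libraries.

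By Fisher's exact test (two-sided, p adjusted by Benjamini-Hochberg over those 441 genes), 6 of the 9 passed the threshold of 0.05 as higher in replicate 2, against 20.4% of all genes. Mirlet7d passed as lower, against 36.5% of all genes, and 56.9% passed in either direction. Mirlet7b (adjusted p = 0.139, Fisher's exact test) and Mirlet7a-1 (adjusted p = 0.0629, Fisher's exact test) did not pass. This test compares 2 libraries, not conditions, and counts no error but that of counting, which is very small at these depths: Mirlet7i passed with CPM only 1.05-fold apart.

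With library totals, none of the 9 genes was more than 2-fold apart between the libraries. Of the 243 genes whose counts averaged 100 or more, 17.3% were. The median absolute log2 ratio was 0.17 for the 9 genes and 0.44 for the 243. With TMM scaling (described below) it was 0.48 for the 9 genes and 0.46 for the 243, so the smaller spread depended on the scaling. Spread beyond counting error, as the biological coefficient of variation from edgeR's common dispersion, was 0.377 over the 344 genes that reached 10 counts in both replicates. With this spread, the exact test of edgeR called 0 of the 9 genes at an adjusted p under 0.05 and 0 at an unadjusted p under 0.05, and the lowest unadjusted p from edgeR was 0.336. Over all 441 genes it called 2 (0.454%), and its unadjusted p was under 0.05 for 23. The spread comes from the same 2 libraries, so the test is not independent of the differences it judges.

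**Figure D2:**
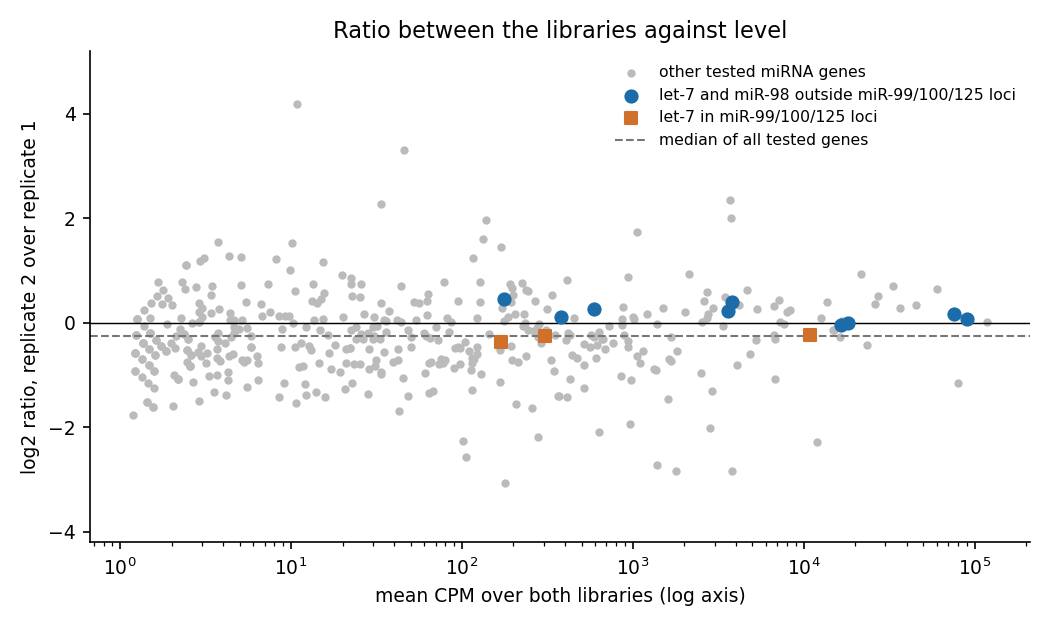
Log2 ratio of replicate 2 over replicate 1 against mean CPM (log axis) for the 441 tested genes. Circles are the 9 genes outside miR-99/miR-100/miR-125 loci, squares the 3 let-7 genes inside them, and the dashed line is the median of all tested genes, -0.26; the circles lie between -0.04 and 0.46.

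The direction between the libraries depended on the scaling. TMM scaling (trimmed mean of M-values), which sets the bulk of genes equal, raised the log2 ratio of each of the 9 genes by 0.30, and brought the median of all tested genes from -0.26 to -0.01. All 9 genes were then higher in replicate 2, between 0.27 and 0.76 with a median of 0.48, and all 9 passed Fisher's exact test, against 30.6% of all genes higher and 24% lower. Of all genes, 135 then passed as higher and 106 as lower, where library totals gave 90 and 161. Leaving Mir126a, which fell from 458262 to 187540 counts, out of the totals moved the ratios the other way: Mirlet7i fell to -0.03, and the median of the 9 genes was 0.08. With those totals 5 of the 9 genes passed as higher and 3 as lower, against 17% and 41.1% of all genes. DESeq2 size factors gave 9 higher and 0 lower, against 29.5% and 25.2%. Counts taken without regard to strand gave 4 higher and 3 lower, against 16.2% and 41.1%, with no reads for Mirlet7f-1.

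**Figure D3:**
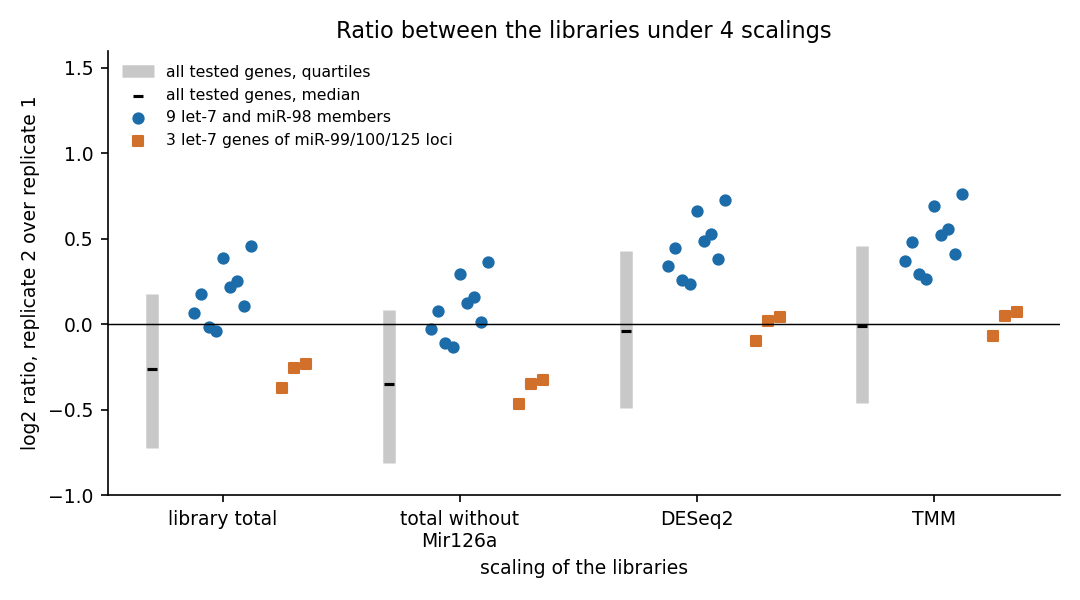
Log2 ratio of replicate 2 over replicate 1 under 4 scalings. Circles are the 9 genes, squares the 3 let-7 genes of miR-99/miR-100/miR-125 loci, and the grey bar and dash give the quartiles and median of all tested genes; the circles move from a median of 0.17 with library totals to 0.48 with TMM, and the squares shift with them.

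The share of the 9 genes in the 2 replicates depended on the denominator. Without Mir126a in the totals they held 22.7% and 22.8%. Of all reads the tables account for, multi-mapped and unmapped reads included, they held 8.84% and 8.86%. With sense totals the shares were 20.2% and 21.7%, so the gap between replicates shrank from 1.46 to 0.107 percentage points without Mir126a. Counted without regard to strand the direction turned, with 27.3% in replicate 1 and 27.1% in replicate 2.

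**Figure D4:**
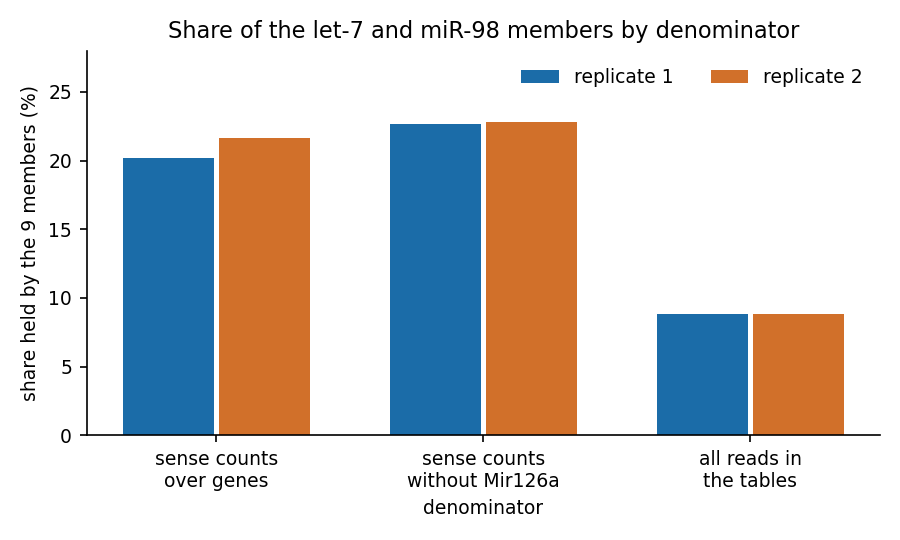
Share of reads held by the 9 genes together, in percent, with a bar per replicate, over 3 denominators. The bars of replicates 1 and 2 are 20.2% and 21.7% over sense counts, 22.7% and 22.8% without Mir126a, and 8.84% and 8.86% over all reads.

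The 3 let-7 genes of the miR-99/miR-100/miR-125 loci held far fewer assigned reads, 1.22% and 1.04% of sense counts. Mirlet7e, whose 5p strand is found in no other hairpin, had 11721 and 9987 CPM, Mirlet7c-1 had 334 and 280 CPM, and Mirlet7a-2 had 191 and 147 CPM. All 3 had lower CPM in replicate 2 and passed Fisher's exact test as lower, with log2 ratios of -0.23, -0.25 and -0.37. Of all tested genes 36.5% passed as lower and the median ratio was -0.26, so these 3 genes stood near the bulk of the library. With TMM scaling they stood at 0.07, 0.05 and -0.07, which splits their directions. The libraries number 2 and genes are not replicates, so the difference between the sets was not tested. Between copies with the same 5p strand, Mirlet7c-2 had 1.62-fold and 2.31-fold the assigned reads of Mirlet7c-1, and Mirlet7a-1 had 1.90-fold and 2.66-fold those of Mirlet7a-2. The 3p strands of Mirlet7c-1 and Mirlet7a-2 are found in no other hairpin, while Mirlet7c-2 and Mirlet7a-1 share both strands. These folds compare reads that could be placed, not the output of the copies.

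The RefSeq table lists 2 further genes whose mature strand carries the let-7 seed. Mir7k (let-7k) and Mir1961 had 0 counts in both libraries, which allows levels of up to 0.715 CPM in replicate 1 and 0.789 CPM in replicate 2. All assigned reads of annotated let-7 seed genes therefore came from the 9 genes and from the 3 in miR-99/miR-100/miR-125 loci, which together took 21.4% and 22.7% of sense counts.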

How the data were processed

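The 2 microRNA-seq libraries of mouse heart were analysed from the deposited tables of raw counts per miRNA gene, which the authors did not normalize. Description files that accompany the deposited counts name mm10 and GENCODE M21. The aligner was not given in the sources used here. Column 3, counts on the gene's strand, was used. The strand of each column was read from the values. Lines that name no gene, 56.2% and 59.1% of reads, stayed out of totals. CAST alleles can cost reads in alignment, which was not tested. Replicates were taken from the labels.

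CPM, log2 ratios of CPM + 1, 95% Wilson intervals and intervals of folds between genes from counts (log scale, Poisson) were computed in Python 3.11.15 with scipy 1.17.1; intervals cover counting error only, since PCR reads are not independent molecules. Fisher's exact test was checked on simulated counts with counting error only, so the check does not cover spread between libraries. TMM scaling, the dispersion and the exact test came from edgeR 4.0.16, and other size factors from DESeq2 1.42.0. A quasi-likelihood fit was not possible, as comparing single libraries leaves no residual degrees of freedom. Depth was 4196577 and 3801738 sense counts. Windows of 20 bases were compared among annotated hairpins only. All 9 hairpins matched RefSeq in position and sequence. Named genes are the 9 genes, those with the same seed (Mirlet7a-2 by its hairpin), Mir126a, markers, and the nearest other genes in level to the 3 most abundant. The rule for the 9 genes uses names only, but they and the lists were chosen with earlier results of these data known. Mir7j and the Mir1a and Mir133a genes were named after their values were seen.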

Additional observations from a re-analysis of the deposited data

Results flagged for a closer look

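The column of counts on the opposite strand, which entered no comparison, held reads above the level that a count of 0 allows (3 counts) at 2 of the 9 genes. Mirlet7b had 4 counts there in replicate 2 and 1 in replicate 1. Mirlet7f-1 had 4 in replicate 2 and 0 in replicate 1, equal to the sense counts of Gm24111 on that strand.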

How the results depend on the processing

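The share of the 9 genes, 20.9% of sense counts, was 27.2% with counts taken without regard to strand, 8.85% of all reads and 22.7% without Mir126a; leaving out each replicate gave 20.2% and 21.7%. The count of the 9 genes lower in replicate 2, 1 with library totals, was 0 with TMM and DESeq2 scaling, 3 without regard to strand (where those higher numbered 4 in place of 6), 3 without Mir126a and 0 by edgeR's exact test, which also called 0 as higher. Over all genes that test called 2 as higher and 0 as lower, and 106 were lower with TMM scaling. With no count minimum, and with 10 or more counts in each library, the same 7 of the 9 genes passed in the same directions.

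The log2 ratio of Mirlet7i turned to -0.044 without regard to strand and -0.026 without Mir126a, and that of Mirlet7a-1 to 0.00 (-0.0023) without regard to strand. Mirlet7b turned to 0.29 with TMM and 0.26 with DESeq2 scaling, and Mirlet7d to 0.27 and 0.24. The log2 difference of Mir98 over Mirlet7f-2 turned to -0.32 per hairpin base and to -0.026 in replicate 1 alone, beside 0.15 in replicate 2. The scalings shift all genes by construction. Mirlet7i and Mirlet7a-1 had the same counts with and without regard to strand, so for them only the library totals differed in that setting. Without regard to strand, reads left ambiguous between genes made up 11.4% and 8.25% of all reads in replicates 1 and 2. The change of Mir98 over Mirlet7f-2 per hairpin base follows from their hairpin lengths, 108 and 83 bases. For changes beyond these the cause was not tested. No strand-free value exists for Mirlet7f-1, which has 0 counts there. No paired analysis was possible because the series has 1 group.

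Depth did not limit these genes. The number of libraries, 2, did, and how many let-7 reads were set aside as multi-mapped was not tested.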
